A study of Mus musculus with 4 samples.

Results

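The 9 genes described here encode ligands and receptors of the interleukin-1 (IL-1) family: Il33, Il1b, Il1a, Il18, the receptor antagonist Il1rn, and the receptor genes Il1r1, Il1rap, Il1rl1 and Il1rl2. They were chosen by gene symbol, matched in lower case (il33, il1b, il1a, il18, il1rn, il1r1, il1rap, il1rl1 and il1rl2), and all 9 were found among the 22609 genes of the deposited count table. RNA was sequenced from cells sorted from pancreatic ductal adenocarcinoma of a spontaneous mouse model on the C57BL/6 background, with 2 libraries for the FAP+ fraction that carried CD34 (CD34+) and 2 for the FAP+ fraction that did not (CD34-). FAP is fibroblast activation protein, a surface protease of tumour stroma that every sorted fraction carried, and CD34 is a cell-surface glycoprotein best known from blood progenitors and vessels. The labels call the 2 libraries of a group biological replicates, from separate experiments, but name neither the alleles that drive the tumours, nor the age of the mice, nor how many animals stood behind a library; p-values measure the spread between these libraries.

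Family members signal through paired receptor chains. IL-1 alpha and IL-1 beta bind IL-1 receptor 1 (Il1r1), IL-33 binds ST2 (Il1rl1) and the IL-36 cytokines bind the receptor encoded by Il1rl2, and each complex recruits the shared accessory chain encoded by Il1rap, then MyD88 and IRAK kinases, and activates NF-kB. In pancreatic tumours, IL-1 is known as a signal that drives cytokine and chemokine production by fibroblasts, and IL-33 as an alarmin stored in the nuclei of stromal cells.

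Total counts lay between 10322354 and 14633561 per library. A count of 0 allows up to 3 counts, between 0.205 and 0.291 CPM (counts-per-million) by library. All 8 fibroblast markers, among them Col1a1, Dcn and Pdgfra, were present in every library, with a summed level between 36613 and 40426 CPM. Cd34 was 143 and 293 CPM in CD34+ libraries, against 18.3 and 23.9 CPM in CD34- libraries. Fap was 79.0 and 39.8 CPM in CD34+ libraries, against 142 and 136 CPM in CD34- libraries. Levels in CPM are counts over the total of the library, and values in pairs are replicate 1 then replicate 2. Log2 fold changes are CD34+ over CD34-, from edgeR's quasi-likelihood test with p adjusted by Benjamini-Hochberg over the 13875 genes tested; a gene was called at an adjusted p under 0.05. All 9 genes passed the filter on low counts.

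Il33 was the most abundant ligand and lay higher in CD34+ cells, while Il1rl1, which encodes its receptor, was high in a single CD34+ library. Il1rl2 lay lower in CD34+ cells. None of these differences passed the test: edgeR called 0 of the 9 genes, as it called 0% of all genes tested in either direction. At an unadjusted p under 0.05 it had 2 of the 9 higher (Il1rl1 and Il33), where 9.81% of all genes tested were higher, and 1 lower (Il1rl2), where 6.65% were lower (16.5% in either direction). DESeq2 and edgeR with no filter on low counts, which called 4.03% and 1.58% of all genes they tested, edgeR with a replicate block, which called 0.447%, and the other settings tried also called 0 of the 9, and the lowest adjusted p was 0.0595, for Il1rl1 in the edgeR fit with no filter. Both CD34+ libraries lay above both CD34- libraries for Il33 and Il1rl1 and below them for Il1rl2, so that the groups were apart for 3 of 9 genes, against 50.1% of all genes tested (23.4% higher and 26.6% lower). The median log2 fold change of the 9 was 0.24, and that of all genes tested was -0.02. Because these are bulk samples, fewer cells of a type and less RNA per cell cannot be told apart.

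**Figure D1:**
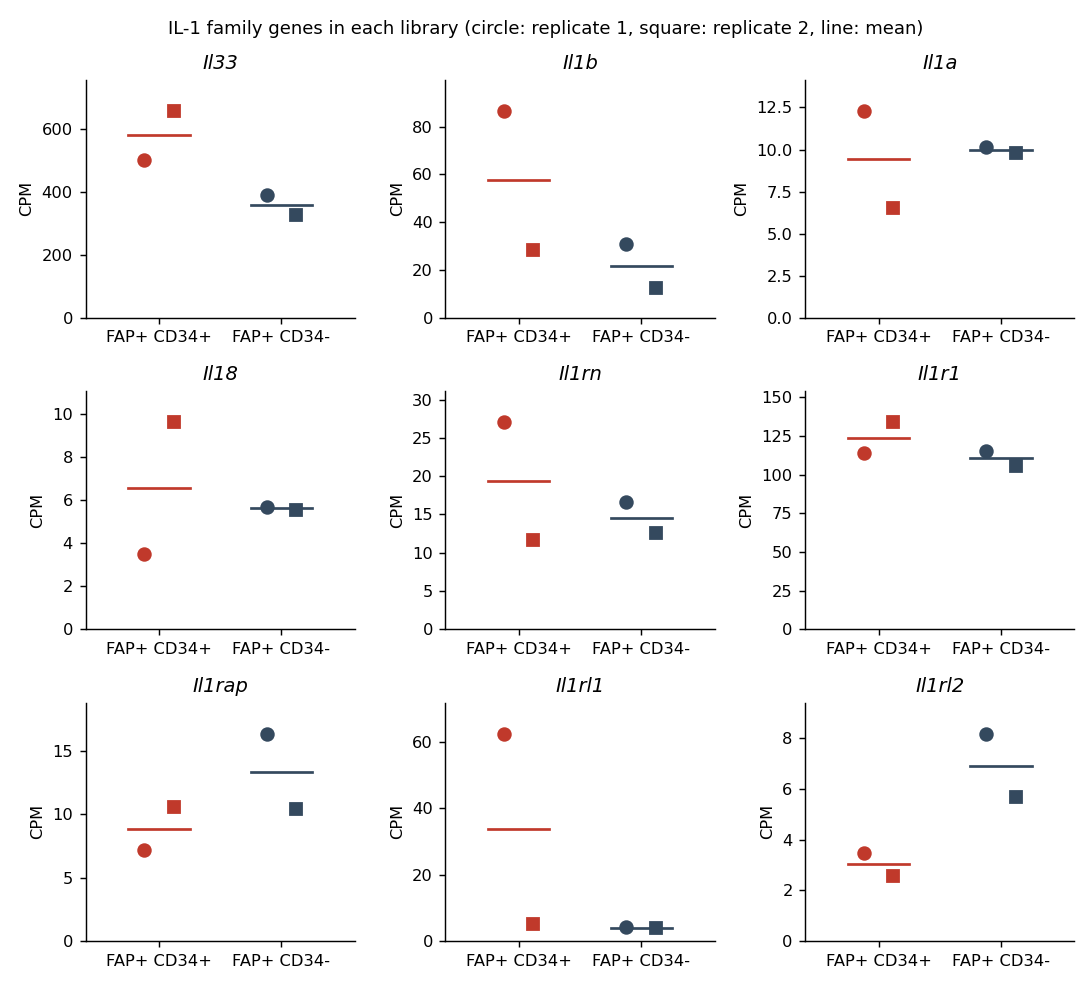
Level of each of the 9 genes in CPM (vertical axes, from 0) in FAP+ CD34+ libraries (red, left) and FAP+ CD34- libraries (dark, right); circles are replicate 1, squares replicate 2 and lines the group means. Il1rl1 stands at 62.4 CPM in CD34+ replicate 1 and between 3.83 and 4.98 CPM in the other libraries.

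Among the ligands, Il33 encodes an alarmin that is held in the nucleus and released on cell damage. It was 503 and 659 CPM in CD34+ libraries, against 391 and 327 CPM in CD34- libraries. Every CD34+ value lay above every CD34- value. The mean was 581 ± 110 CPM for CD34+ and 359 ± 44.9 CPM for CD34- libraries (SD, n = 2 each), a log2 fold change of 0.72 (edgeR, SE 0.29, adjusted p = 0.301). Leaving out each library in turn gave between 0.51 and 0.87. In the deposited RPKM (reads scaled to gene length and library size), Il33 was 110 and 187 in CD34+ libraries, against 125 and 110 in CD34- libraries. On that scale the groups overlapped, but RPKM scaled the libraries otherwise than the count totals behind CPM. The median log2 fold change of all genes tested was -0.31 there (log2 RPKM + 1, limma). That of Il33 was 0.29, and 0.60 once this shift was taken off.

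Il1b encodes IL-1 beta, a cytokine made as a precursor and cut by caspase-1, chiefly in myeloid cells. Its level was 86.6 and 28.5 CPM in CD34+ libraries, against 30.9 and 12.4 CPM in CD34- libraries. CD34+ replicate 1 was the highest and CD34- replicate 2 the lowest, and the other libraries lay close together, so the groups overlapped. Its difference of 1.46 on the log2 scale (edgeR, SE 0.62, adjusted p = 0.313) was 0.41 without CD34+ replicate 1, 2.04 without CD34+ replicate 2, 2.13 without CD34- replicate 1 and 0.98 without CD34- replicate 2. Within each replicate number the CD34+ library was the higher for Il1b. With a replicate block its log2 fold change was 1.37 (edgeR, adjusted p = 0.0747), though no label says that a number marks shared animals. Of 16 macrophage and monocyte markers, 14 were also highest in CD34+ replicate 1, against 28.9% of all genes tested, and none was at 0 in any library. Their summed level was 398 and 207 CPM in CD34+ libraries, against 206 and 116 CPM in CD34- libraries. Whether these cells had a part in the level of Il1b was not tested.

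Il1a encodes IL-1 alpha, which is active without being cut and is made by many cell types. It was 12.3 and 6.52 CPM in CD34+ libraries, against 10.1 and 9.77 CPM in CD34- libraries. The CD34- values lay between the CD34+ values, and the log2 fold change was -0.06 (edgeR, SE 0.42, adjusted p = 0.954). Il1b counted more than Il1a in every library, and the ratio of their RPKM was 10.5 and 6.50 in CD34+ libraries, against 4.54 and 1.88 in CD34- libraries. That ratio was higher in both CD34+ libraries than in either CD34- library, and it was not tested.

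Il18 encodes a ligand that caspase-1 also matures, and that drives interferon-gamma in lymphocytes. It was 3.49 and 9.60 CPM in CD34+ libraries, against 5.67 and 5.54 CPM in CD34- libraries. The CD34+ libraries held both the lowest and the highest value. Behind these were 36 counts in CD34+ replicate 1 and 131 in CD34+ replicate 2, whose exact Poisson 95% intervals, 2.44 to 4.83 CPM and 8.02 to 11.4 CPM, did not overlap; such intervals cover counting error only. The log2 fold change was 0.24 (edgeR, SE 0.54, adjusted p = 0.846).

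Il1rn encodes the IL-1 receptor antagonist, which occupies IL-1 receptor 1 without signalling. It was 27.0 and 11.6 CPM in CD34+ libraries, against 16.6 and 12.6 CPM in CD34- libraries. Here too CD34+ replicate 1 was the highest, and CD34+ replicate 2 was the lowest (log2 fold change 0.44, SE 0.45, adjusted p = 0.638, edgeR). Per gene length there was less Il1rn than Il1b in every library. The ratio of Il1rn to Il1b in RPKM was 0.167 and 0.219 in CD34+ libraries, against 0.287 and 0.544 in CD34- libraries, so that both CD34+ values lay below both CD34- values; the difference was not tested.

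Of the receptor genes, Il1r1 encodes the signalling receptor of IL-1. It was the most even of the 9 genes, at 114 and 134 CPM in CD34+ libraries, against 115 and 106 CPM in CD34- libraries. Its highest library was 1.27-fold above its lowest. The groups overlapped, with a mean of 124 ± 14.1 CPM for CD34+ and 110 ± 7.02 CPM for CD34- libraries (SD, n = 2 each) and a log2 fold change of 0.18 (edgeR, SE 0.24, adjusted p = 0.715).

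Il1rap encodes the accessory chain that IL-1, IL-33 and IL-36 receptors share. It was 7.17 and 10.5 CPM in CD34+ libraries, against 16.3 and 10.4 CPM in CD34- libraries. The groups overlapped narrowly, at CD34+ replicate 2 and CD34- replicate 2 (log2 fold change -0.56, SE 0.37, adjusted p = 0.478, edgeR). Measured against Il1r1 in the same library by RPKM, Il1rap stood at 0.0662 and 0.0829 in CD34+ libraries, against 0.149 and 0.103 in CD34- libraries.

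Il1rl1 encodes ST2, the receptor of IL-33, as a membrane form and as a soluble form that captures the ligand; counts per gene do not separate these forms. It was 62.4 and 4.98 CPM in CD34+ libraries, against 4.24 and 3.83 CPM in CD34- libraries. CD34+ replicate 2 lay near the CD34- libraries, and CD34+ replicate 1 was 12.5-fold above it. The counts were 644 and 68 in CD34+ libraries, against 56 and 56 in CD34- libraries, and the exact Poisson 95% interval was 57.7 to 67.4 CPM in CD34+ replicate 1 and 3.87 to 6.32 CPM in CD34+ replicate 2. The difference of 3.09 on the log2 scale (edgeR, SE 1.07, adjusted p = 0.261) therefore rested on CD34+ replicate 1: without it the value was 0.30 (adjusted p = 0.845, edgeR). A ratio of CD34+ replicate 1 to CD34+ replicate 2 at least as large was found in 0.0577% of genes tested. Only 0.0216%, 3 of 13875, stood at least as far above the next highest library in CD34+ replicate 1, and Il1rl1 was 1 of them. Mast cells and group 2 innate lymphoid cells are known for high Il1rl1. Of 10 markers of these cells, Mcpt4, Cma1 and Ms4a2 were at 0 counts in CD34+ replicate 1, and Cpa3, Tpsb2 and Tpsab1 had 3, 1 and 1 counts there. Of the 10, 5 were highest in CD34+ replicate 1, as were Il1rl1 and 28.9% of all genes tested. Among the 5 were the transcription factor gene Gata3, the stem cell factor receptor gene Kit and the histidine decarboxylase gene Hdc. The rest of the 5 were Cpa3 and Tpsb2, which rested on the 3 and 1 counts given above. Gata3 was 4.75 and 1.03 CPM in CD34+ libraries, against 1.66 and 1.16 CPM in CD34- libraries. Kit was 3.39 and 2.12 CPM in CD34+ libraries, against 0.681 and 0.888 CPM in CD34- libraries. Hdc was 12.8 and 10.8 CPM in CD34+ libraries, against 9.23 and 1.64 CPM in CD34- libraries. The summed level of the 10 was 43.3 and 52.5 CPM in CD34+ libraries, against 53.9 and 54.5 CPM in CD34- libraries. Most of it was Rora, a nuclear receptor gene that was lowest in CD34+ replicate 1, at 21.9 and 37.9 CPM in CD34+ libraries, against 40.1 and 50.5 CPM in CD34- libraries. The part of these cells in the level of Il1rl1 was not tested.

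Il1rl1 has 2 annotated starts in RefSeq, and the counts cannot say which of them gave the reads of CD34+ replicate 1. The 250 bases before each start are shown beside those of its neighbour Il1rl2, which had the most negative log2 fold change of the 9 (RefSeq, GRCm38.p6, all plus strand, each 5′ to 3′). Capitals mark GATAAG (the motif bound by GATA factors), which was found on the printed strand, and GGAATTTCC (an NF-kB motif); both strands were searched for both, and for the AP-1 motif TGAGTCA, and no matches overlapped. The motifs were chosen with the sequences in view.
Il1rl1 upstream start, chr1:40429320-40429569: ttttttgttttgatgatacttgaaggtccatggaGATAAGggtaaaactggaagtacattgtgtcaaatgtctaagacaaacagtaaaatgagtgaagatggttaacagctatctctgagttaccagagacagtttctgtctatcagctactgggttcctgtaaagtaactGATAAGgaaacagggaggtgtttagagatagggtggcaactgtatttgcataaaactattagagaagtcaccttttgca
Il1rl1 downstream start, chr1:40439379-40439628: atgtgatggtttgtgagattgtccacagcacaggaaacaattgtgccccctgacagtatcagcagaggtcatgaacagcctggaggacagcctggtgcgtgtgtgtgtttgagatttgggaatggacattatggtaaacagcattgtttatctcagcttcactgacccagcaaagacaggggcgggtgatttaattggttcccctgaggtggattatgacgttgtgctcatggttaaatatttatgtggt
Il1rl2, chr1:40324339-40324588: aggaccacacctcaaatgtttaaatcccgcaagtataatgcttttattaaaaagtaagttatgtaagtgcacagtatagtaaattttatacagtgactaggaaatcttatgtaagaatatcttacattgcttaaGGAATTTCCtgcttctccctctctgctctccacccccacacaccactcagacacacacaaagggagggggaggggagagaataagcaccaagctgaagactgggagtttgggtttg
GATAAG occurs at both marked places before the upstream start of Il1rl1 and in 6.55% of 32851 such windows of mouse genes. GGAATTTCC occurs before Il1rl2 and in 0.286% of the windows. Before the downstream start of Il1rl1 neither these letters nor TGAGTCA occur. All 9 genes had at least 1 window, 14 in all; GATAAG was in 1 of them, GGAATTTCC in 1 and TGAGTCA in 2, those of Il1rn and Il1a. A match is a run of letters and shows no binding.

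Il1rl2 encodes the receptor of IL-36. It was 3.49 and 2.56 CPM in CD34+ libraries, against 8.17 and 5.67 CPM in CD34- libraries. Both CD34+ values lay below both CD34- values, at counts of 36 and 35 in CD34+ libraries, against 108 and 83 in CD34- libraries. The mean was 3.03 ± 0.653 CPM for CD34+ and 6.92 ± 1.77 CPM for CD34- libraries (SD, n = 2 each), with a log2 fold change of -1.16 (edgeR, SE 0.44, adjusted p = 0.284). It stayed negative under every setting tried, between -1.49 and -0.96. On mouse chromosome 1 Il1r2, Il1r1, Il1rl2, Il1rl1 and Il18r1 follow one another, so that Il1rl2, lower in CD34+ libraries, stands between Il1r1, with overlapping groups, and Il1rl1, high in 1 library.

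**Figure D2:**
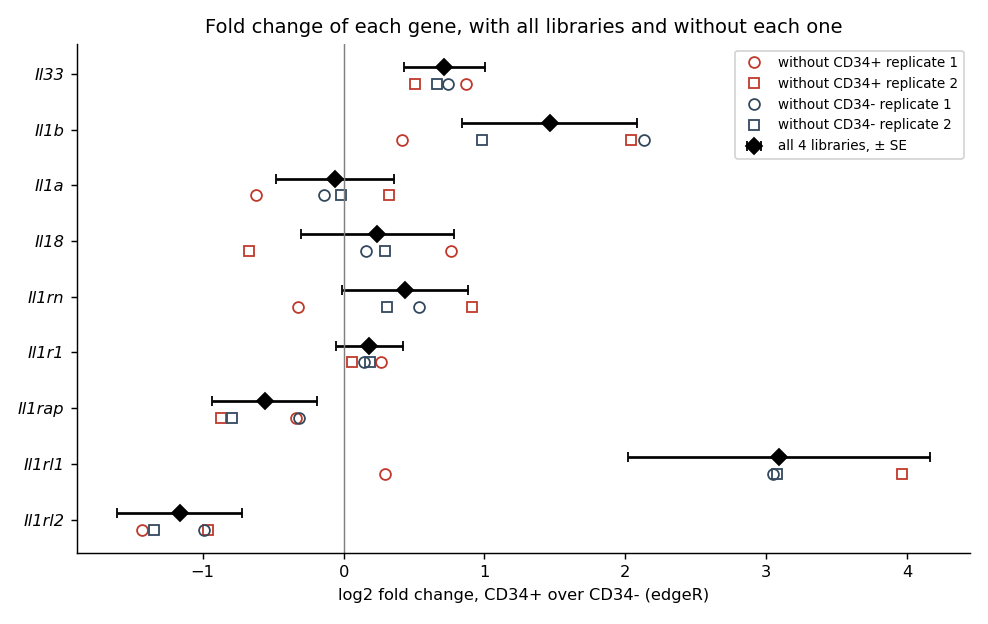
Log2 fold change of each gene, CD34+ over CD34- (horizontal axis, edgeR); black diamonds with bars are the values of all 4 libraries ± SE, and open symbols the values without each library. Il33, Il1b, Il1r1, Il1rap, Il1rl1 and Il1rl2 kept their sides of 0 whichever library was left out, and Il1a, Il1rn and Il18 did not. Il1rl1 moved to 0.30 without CD34+ replicate 1.

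Levels of different genes were compared per gene length. By mean RPKM over the 4 libraries (SD, n = 4) the order was Il33 (133 ± 36.8 RPKM), Il1b (19.8 ± 12.1 RPKM), Il1r1 (18.01 ± 3.21 RPKM), Il18 (5.29 ± 2.37 RPKM), Il1rn (4.84 ± 1.19 RPKM), Il1a (3.59 ± 0.866 RPKM), Il1rl1 (2.24 ± 3.11 RPKM), Il1rl2 (1.97 ± 1.21 RPKM) and Il1rap (1.86 ± 0.842 RPKM). Il33 ranked first in every library, above at least 97.3% of all genes in the table, and its lowest library was above the highest library of any other member. Il1r1 likewise stood apart from Il18, which followed it. The other neighbours in the order had overlapping ranges. Il1b lay above Il1r1 in 1 of 4 libraries by RPKM and in 3 of 4 by the deposited FPKM (fragments scaled likewise and bias-adjusted). Il1rl1 was the lowest of the 9 in all libraries but CD34+ replicate 1, where it ranked 4. The RNA was amplified from the poly(A) tail, so dividing by full gene length may misstate a level between genes; its effect was not tested.

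**Figure D3:**
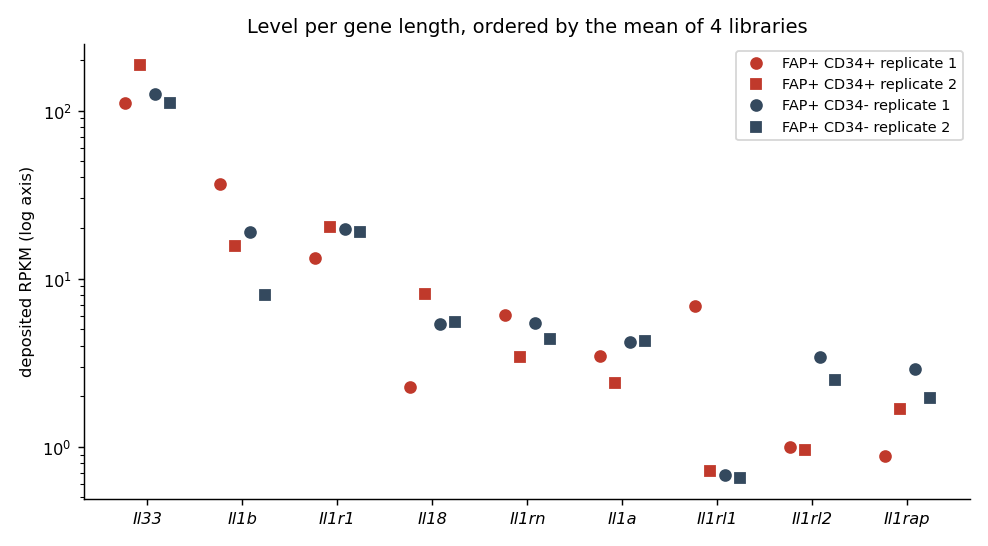
Deposited RPKM of the 9 genes (log axis) in each library, ordered by the mean of the 4 libraries; red is FAP+ CD34+, dark is FAP+ CD34-, circles are replicate 1 and squares replicate 2. Il33 lies between 110 and 187 RPKM, above all the others.

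The ligand and its receptor were far apart in level. Il33 was 16.01 and 262 times Il1rl1 by RPKM in CD34+ libraries, against 183 and 170 times in CD34- libraries. CD34+ replicate 1 gave the low value, and the remaining libraries lay between 170 and 262. Il1r2, which encodes the decoy receptor of IL-1, was 0.786 and 0.339 of Il1r1 by RPKM in CD34+ libraries, against 0.345 and 0.0927 in CD34- libraries. These groups overlapped.

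Il1rl1, Il1b, Il1rn and Il1a, 4 of the 9, were highest in CD34+ replicate 1, as were 28.9% of all genes tested. Il33, Il18 and Il1r1 were highest in CD34+ replicate 2 instead. The summed endothelial, mesothelial and epithelial markers were also highest in CD34+ replicate 1. Endothelial markers summed to 107 and 79.6 CPM in CD34+ libraries, against 43.7 and 47.3 CPM in CD34- libraries, and 8 of 10 were higher in both CD34+ libraries, against 23.4% of all genes tested. The other 2 were lower in both: Esam was 8.91 and 9.30 CPM in CD34+ libraries, against 13.5 and 17.5 CPM in CD34- libraries, and Emcn was 4.84 and 5.27 CPM in CD34+ libraries, against 10.7 and 6.83 CPM in CD34- libraries. Mesothelial markers summed to 266 and 144 CPM in CD34+ libraries, against 137 and 99.3 CPM in CD34- libraries. Of the 6 in the table, 4 were highest in CD34+ replicate 1. Msln was highest in CD34- replicate 1, at 75.0 CPM, and Upk1b in CD34- replicate 2, at 7.52 CPM. Epithelial markers summed to 866 and 545 CPM in CD34+ libraries, against 799 and 407 CPM in CD34- libraries. Of these 8 markers, 5 were highest in CD34+ replicate 1. Krt8, Krt18 and Cdh1 were highest in CD34- replicate 1, at 263, 266 and 54.8 CPM. Neutrophil markers were low, with a sum of 32.6 and 37.5 CPM in CD34+ libraries, against 28.4 and 27.7 CPM in CD34- libraries. Within that sum S100a8, S100a9, Retnlg, Ngp and Camp were highest in CD34- replicate 1. Csf3r and Cxcr2, 2 of the 9 in the table, were highest in CD34+ replicate 1. No endothelial, mesothelial or epithelial marker in the table was at 0 in any library, and of the neutrophil markers only Ngp was, in CD34+ replicate 1. The part of these cells in the levels of the 9 genes was not tested.

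**Figure D4:**
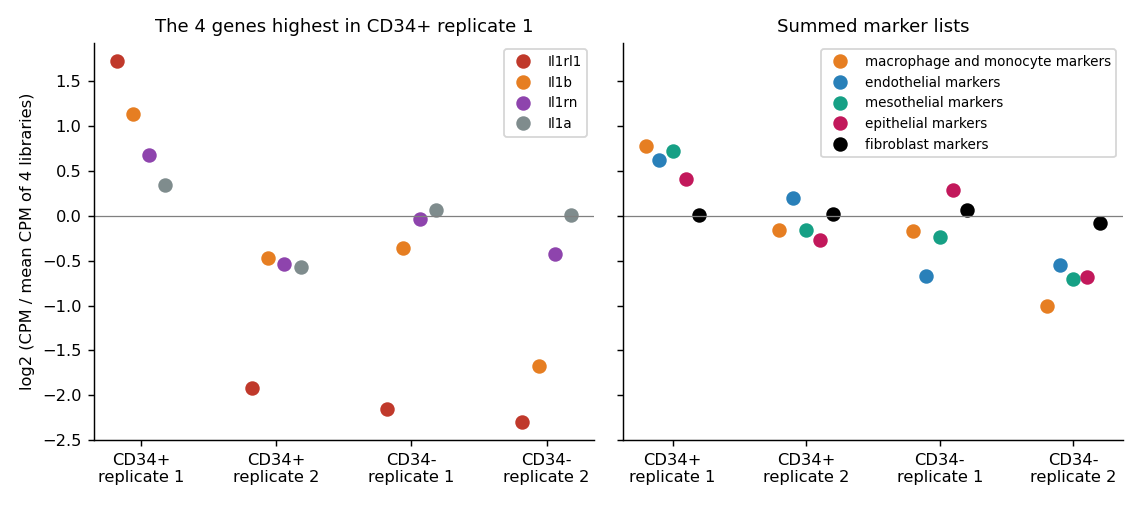
Log2 of CPM over the mean CPM of the 4 libraries for the 4 genes highest in CD34+ replicate 1 (left) and for the summed markers of 5 cell types (right). Not drawn are 2 lists whose sums were not highest in that library. In CD34+ libraries neutrophil markers summed to 32.6 and 37.5 CPM, and those of mast cells and group 2 innate lymphoid cells to 43.3 and 52.5 CPM. Il1rl1 and Il1b stand farthest above their means in CD34+ replicate 1, where macrophage markers sum to 398 CPM. The fibroblast sum, most of it collagen genes, stays close to 0 in all libraries. Single fibroblast markers varied more. Dcn was 2344 and 6188 CPM in CD34+ libraries, against 1520 and 2659 CPM in CD34- libraries. Col1a1 was 9558 and 3979 CPM in CD34+ libraries, against 5165 and 4185 CPM in CD34- libraries.

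The genes whose pattern over the 4 libraries was most like that of Il1r1 were Podxl (9.30 and 11.3 CPM in CD34+ libraries, against 9.53 and 8.68 CPM in CD34- libraries), Atr and 5133401N09Rik, at Euclidean distances of 0.0240, 0.0266 and 0.0504 in centred log2 CPM. For Il33 they were 2510002D24Rik, Echdc2 and Bdh2, at 0.0571, 0.0863 and 0.0900. Of 10519 genes compared, 3144 lay within 0.5 of Il1r1 and 617 within 0.5 of Il33, so that such likeness over 4 libraries is common. Chosen after its values were seen, Il1b had 22 genes within 0.5, the nearest being Lrrtm2 (0.0724), the macrophage marker Laptm5 (0.111) and Hjurp (0.255). Il1rl1, chosen likewise, had 0.

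Other genes of the family and pathway were taken from lists drawn up with earlier results of these data known. Of 12 further ligand, receptor and binding protein genes in the table, 6 could be tested and edgeR called 0. At an unadjusted p under 0.05, 2 were higher and 0 lower, where 9.81% of all genes tested were higher and 6.65% lower. Il1f9, which encodes IL-36 gamma, a ligand of the Il1rl2 receptor, was 7.56 and 4.18 CPM in CD34+ libraries, against 2.80 and 1.16 CPM in CD34- libraries (difference on the log2 scale 1.61, SE 0.60, adjusted p = 0.280, edgeR). Il18bp, the soluble trap of IL-18, was 6.20 and 10.4 CPM in CD34+ libraries, against 2.42 and 4.44 CPM in CD34- libraries (1.27, SE 0.52, adjusted p = 0.302, edgeR). All CD34+ values lay above all CD34- values for 4 of the 6 genes tested (Il1f9, Il18bp, Il1r2 and Il18r1), against 23.4% of all genes tested. For Il1f9 this was opposite to Il1rl2. Il1r2 was 24.99 and 12.7 CPM in CD34+ libraries, against 11.1 and 2.73 CPM in CD34- libraries (adjusted p = 0.327, edgeR). The chain of the IL-18 receptor that binds the ligand, Il18r1, was 1.55 and 1.83 CPM in CD34+ libraries, against 0.757 and 0.752 CPM in CD34- libraries, and its partner Il18rap was 1.07 and 0.952 CPM in CD34+ libraries, against 4.39 and 0.957 CPM in CD34- libraries. Sigirr, which encodes an inhibitory receptor of the family, lay between 1.44 and 2.80 CPM. Il1rapl1, Il1rapl2, Il1f5, Il1f6, Il1f8 and Il1f10 had at most 5 counts in any library.

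Of 13 tested genes of ligand maturation (inflammasome parts and proteases), edgeR called 0. At an unadjusted p under 0.05, 3 were higher and 0 lower, where 9.81% of all genes tested were higher and 6.65% lower. Of the 13, 9 had a positive log2 fold change and the median was 0.13. Casp1, whose product cuts IL-1 beta and IL-18, was 13.7 and 22.1 CPM in CD34+ libraries, against 19.8 and 18.9 CPM in CD34- libraries. Casp4, encoding the caspase of the non-canonical inflammasome, was 97.8 and 85.1 CPM in CD34+ libraries, against 21.8 and 47.7 CPM in CD34- libraries (difference on the log2 scale 1.39, SE 0.43, adjusted p = 0.230, edgeR). The adaptor gene Pycard was 21.6 and 23.2 CPM in CD34+ libraries, against 10.1 and 14.2 CPM in CD34- libraries, and the sensor gene Nlrp1a, whose reads may be shared with its near copies, was 22.7 and 24.9 CPM in CD34+ libraries, against 14.4 and 9.23 CPM in CD34- libraries. For Casp4, Pycard and Nlrp1a, named for their low p, the groups did not overlap, as for 50.1% of all genes tested. Casp8 lay the other way, at 23.8 and 33.6 CPM in CD34+ libraries, against 41.6 and 46.0 CPM in CD34- libraries (adjusted p = 0.336, edgeR).

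Of 31 signalling genes edgeR again called 0, 17 were positive and the median log2 fold change was 0.04. At an unadjusted p under 0.05, 5 of the 31 were higher and 1 lower, where 9.81% of all genes tested were higher and 6.65% lower. Those with the lowest p were the feedback kinase gene Irak3 (55.9 and 42.5 CPM in CD34+ libraries, against 23.6 and 27.5 CPM in CD34- libraries, adjusted p = 0.227, edgeR) and the NF-kB subunit genes Nfkb1, Nfkb2 and Rela. Nfkb1 was 1802 and 515 CPM in CD34+ libraries, against 160 and 366 CPM in CD34- libraries (difference on the log2 scale 2.14, SE 0.72, adjusted p = 0.253, edgeR). Nfkb2 was 331 and 146 CPM in CD34+ libraries, against 91.8 and 106 CPM in CD34- libraries. Rela was 329 and 142 CPM in CD34+ libraries, against 79.4 and 110 CPM in CD34- libraries. The 3 subunit genes, like Il1rl1 and Il1b, were highest in CD34+ replicate 1, as were 28.9% of all genes tested.

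Genes that fibroblasts are known to raise when given IL-1 mostly had positive values. Their list, too, was drawn up with earlier results of these data known, so setting it against all genes is not an independent test. Of 29 tested, 26 were positive with a median log2 fold change of 1.33, against -0.02 for all genes tested; edgeR called 0, and 17 were higher and 2 lower at an unadjusted p under 0.05, where 9.81% of all genes tested were higher and 6.65% lower. In CD34+ replicate 1, 19 of the 29 were highest, against 28.9% of all genes tested. Without that library 23 of 29 were positive, the median was 0.72, and 9 were higher and 3 lower at an unadjusted p under 0.05, where 791 of all 14256 genes in that fit were higher and 678 lower. Without CD34- replicate 1 the median was 0.84, and 7 were higher and 3 lower, where 769 of all 14689 genes in that fit were higher and 467 lower. The lowest p were those of Lcn2, a siderophore-binding lipocalin (90.9 and 81.0 CPM in CD34+ libraries, against 11.2 and 7.59 CPM in CD34- libraries, adjusted p = 0.101, edgeR), and Has1, a hyaluronan synthase (1148 and 1295 CPM in CD34+ libraries, against 289 and 414 CPM in CD34- libraries, adjusted p = 0.173, edgeR), with the protease genes Mmp13 and Mmp9 in the other direction. Mmp13 was 15.98 and 13.0 CPM in CD34+ libraries, against 81.8 and 414 CPM in CD34- libraries, and Mmp9 was 17.9 and 8.64 CPM in CD34+ libraries, against 45.9 and 92.8 CPM in CD34- libraries (adjusted p = 0.173 and 0.177, edgeR). Whether IL-1 had a part in the levels of these genes was not tested.

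**Figure D5:**
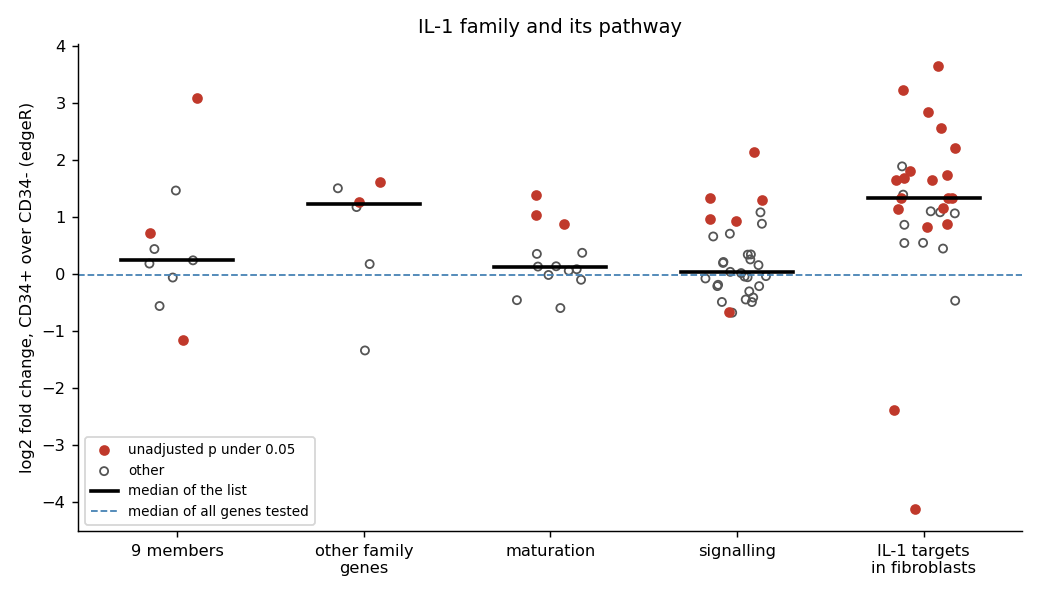
Log2 fold change, CD34+ over CD34- (vertical axis, edgeR), of the 9 genes and of 4 lists of the pathway; each point is a gene, red where the unadjusted p was under 0.05, bars are list medians and the dashed line is the median of all genes tested. The target list has its median at 1.33, and the signalling list at 0.04. The lists were drawn up with earlier results of these data known.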

How the data were processed

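RNA of 4 libraries (2 FAP+ CD34+, 2 FAP+ CD34-; groups and replicate numbers from the titles) was prepared with Purelink and then amplified by MessageAmp, per the labels' protocols; such amplification starts from poly(A) tails and gives copies, not independent molecules. TopHat2, Bowtie2, HTSeq, edgeR and the build mm9 are named in the submitters' processing notes. Their versions, the annotation and any use of strand were not given in the sources used here. Without strand, an antisense or overlapping gene may share reads with its partner. Whole-number counts per gene, RPKM and bias-adjusted FPKM are values the authors deposited. The authors' estimated fragments and 14 further columns of the count table that match no sample were not used here.

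Counts were tested with edgeR 4.0.16 (R 4.3.3): quasi-likelihood F test, TMM scaling, filterByExpr, group as the only term, Benjamini-Hochberg over 13875 genes, all two-sided; the SE is the fold change over the square root of F. The fit has 2 residual degrees of freedom plus 4.17 from moderation. An exact permutation test of 2 against 2 cannot go below p = 0.333 and was not run. CPM are counts over the library total. Total counts (10322354 to 14633561) set the precision, and Poisson intervals cover counting error only. Alternatives were DESeq2 1.42.0, limma 3.58.1 (voom, and log2 of RPKM or FPKM plus a pseudocount), other scalings and filters, a replicate block and leaving out each library. The genes were named by a rule: all 9 members; up to 4 genes of lowest p and at least 5 CPM per pathway list; all further family genes; and the 3 genes nearest to the most abundant receptor and ligand, by distance of centred log2 CPM (0.5 CPM added). Genes outside it are said to be, or are markers, neighbours or Casp1, named after its values were seen. Members, lists and tests were chosen with earlier results of these data known. Sequences are from RefSeq (GRCm38.p6).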

Additional observations from a re-analysis of the deposited data

How the results depend on the processing

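Over all genes edgeR called 0 (2284 at an unadjusted p under 0.05), DESeq2 551, edgeR without a filter 331, with 1 CPM in 2 libraries 2, with library totals alone 2 and with the replicate block 62, and limma 12 on log2 RPKM + 1 and 98 on log2 RPKM + 0.1; limma voom, limma on log2 FPKM + 1, RLE scaling and each left-out library gave 0. Of the 9 genes, every one of these settings called 0. Of the other pathway genes DESeq2 called 12, edgeR without a filter 6, with the replicate block 1 (Lcn2), limma 1 on log2 RPKM + 1 and 3 on log2 RPKM + 0.1; the cause was not tested. Same-numbered libraries deviated together over genes (r = 0.24), but no label says that a number marks shared animals. The RPKM and FPKM scales shifted the median gene by -0.31 (RPKM + 1), -0.42 (RPKM + 0.1) and -0.31 (FPKM + 1). There the log2 fold change of Il1r1 was -0.22, -0.23 and -0.11, and that of Il18 -0.24, -0.34 and -0.14, and on the RPKM scales that of Il1rn -0.072 and -0.094; less the shift, all of these were positive. Leaving out each library gave Il1a between -0.62 and 0.32, Il1rn between -0.32 and 0.91 and Il18 between -0.67 and 0.76. Il33, Il1b, Il1rl1, Il1rl2 and Il1rap kept their direction in all 14 alternatives. With 2 libraries a group, 1 library decides the sign of Il1a, Il1rn and Il18, and counts of 36 in a library limit Il18 and Il1rl2.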

Other observations

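Chosen after its values were seen, Depdc5 stood farther above the next library in CD34+ replicate 1 than Il1rl1 did, at 1028 and 45.1 CPM in CD34+ libraries, against 28.1 and 31.2 CPM in CD34- libraries. The gene nearest to Il1rl1 in pattern was Mid1, at 174 and 20.7 CPM in CD34+ libraries, against 19.5 and 9.70 CPM in CD34- libraries (distance 0.69 in centred log2 CPM). Nlrp3 and Tslp were also chosen after their values were seen. Nlrp3, the inflammasome sensor gene, did not pass the filter on low counts and was not tested. Its level was 5.72 and 0.659 CPM in CD34+ libraries, against 0.530 and 0.273 CPM in CD34- libraries. Tslp, which encodes an alarmin of the same type 2 pathway as IL-33, was 13.2 and 1.17 CPM in CD34+ libraries, against 0.378 and 0.752 CPM in CD34- libraries. All of these were highest in CD34+ replicate 1, as were Il1rl1 and 28.9% of all genes tested. For Depdc5 and Mid1 the way they were chosen set this pattern in advance.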
